A study of Homo sapiens with 7 samples.

Results

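The cytosolic ribosomal protein genes encode the proteins of the ribosome that translates nuclear mRNAs. They were taken as the protein-coding genes on chromosomes 1 to 22 and X of the RefSeq gene table for GRCh38.p14 that carry an RPL, RPLP or RPS gene symbol, together with RPSA, and they numbered 85 of the 19626 protein-coding genes for which a strand was known. Of these, 50 were RPL genes of the large subunit, 3 were RPLP genes of the ribosomal stalk and 32 were genes of the small subunit. The genes were short, with a median length of 5035 bp and a range from 772 bp to 27723 bp, and they lay on 21 chromosomes, 12 of them on chromosome 19. In 29 of them a total of 60 small nucleolar RNA (snoRNA) genes lay within the gene. The choice of genes used names and positions, not peak values.

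Ribosomal protein genes are among the most actively transcribed genes of a dividing cell, and their products are needed in equal amounts. Their mRNAs typically begin at a cytosine followed by a run of pyrimidines, the 5′ terminal oligopyrimidine (TOP) tract, through which their translation responds to growth signals. RNA polymerase II carries a C-terminal domain of repeated heptads, whose serine 5 is typically phosphorylated near gene starts and whose threonine 4 phosphorylation (pThr4) is known mainly from the region past the polyadenylation site.

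The data were pThr4 chromatin immunoprecipitation sequencing (ChIP-seq) peak lists from HEK293, an established human embryonic kidney cell line. Nuclear lysate had been divided into matched aliquots that were incubated in vitro with active SCP1 (SCP1-WT), a phosphatase acting on serine 5 of the heptad, or with a catalytically inactive form (D96A, SCP1-Dead in the labels), so the treatment acted on lysate and not in living cells. All 6 of these libraries were precipitated with the same pThr4 antibody, clone 6D7, and the comparison asks where pThr4 becomes detectable once phosphate on the neighbouring serine 5 is removed. There were 3 biological replicates of each treatment. A further library, an IgG negative control, was not analysed here.

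Each list gives broad peaks called in 1 library, with a fold enrichment over background and a p-value for each peak. The active libraries listed 12625, 6680 and 36892 peaks and the inactive libraries 2466, 1163 and 2699, so lists differed in length within a group as well as between groups. The active libraries also admitted weaker peaks, with a lowest listed −log10 p-value of 3.08 to 3.79, where the inactive lists began at 4.20 or above. The lists hold no read counts, so depth is unknown, and the part of depth in the group differences below was not tested.

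The sequences around the transcription start site (TSS) are shown for ribosomal protein genes that differed in whether a peak lay near the TSS, because the TOP tract begins at the first base. Each line is RefSeq sequence (GRCh38.p14) of 60 bases, 5′ to 3′ on the strand of the gene, with 40 bases before the TSS. Capitals mark the unbroken run of pyrimidines that begins with a cytosine at the TSS, or the first base alone where no such run of at least 5 bases begins there. All of these genes had a peak past the gene end in all 6 libraries. The first 3 also had a peak within 1000 bp of the TSS in all 3 active libraries and no inactive one. The other 7 had none near the TSS in any library.
RPL36, chr19:5690255-5690314, plus strand: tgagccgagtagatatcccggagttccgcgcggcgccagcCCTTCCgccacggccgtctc
RPS15, chr19:1438356-1438415, plus strand: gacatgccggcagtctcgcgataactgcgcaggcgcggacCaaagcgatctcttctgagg
RPS21, chr20:62387063-62387122, plus strand: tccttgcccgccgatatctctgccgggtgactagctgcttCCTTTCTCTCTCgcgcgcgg
RPL26, chr17:8383174-8383233, minus strand: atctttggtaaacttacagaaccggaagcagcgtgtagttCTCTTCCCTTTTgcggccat
RPL38, chr17:74203638-74203697, plus strand: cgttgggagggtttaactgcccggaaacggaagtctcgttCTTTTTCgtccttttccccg
RPL3, chr22:39319604-39319663, minus strand: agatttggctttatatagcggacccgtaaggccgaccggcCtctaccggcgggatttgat
RPL18, chr19:48619159-48619218, minus strand: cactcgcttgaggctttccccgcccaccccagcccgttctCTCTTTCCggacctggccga
RPL13A, chr19:49487568-49487627, plus strand: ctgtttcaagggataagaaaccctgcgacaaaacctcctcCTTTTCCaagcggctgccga
RPS9, chr19:54200818-54200877, plus strand: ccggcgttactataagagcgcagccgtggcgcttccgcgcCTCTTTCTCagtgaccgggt
RPS18, chr6:33272035-33272094, plus strand: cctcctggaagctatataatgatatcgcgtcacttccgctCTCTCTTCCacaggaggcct

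A start sequence was available for 68 of the 85 genes. A cytosine followed by at least 4 pyrimidines began at a TSS in 47 of them (69.1%), against 6.24% of 15812 protein-coding genes with a sequence. From 250 bases before to 50 bases after the start, the ETS-type motif CGGAAG was present on either strand in 43 genes (63.2%, against 29.7%), and AAGATGGC, the core of the YY1 motif, in 7 genes (10.3%, against 4.67%). TATAA on the strand of the gene, from 45 to 16 bases before the TSS, was present in 9 genes (13.2%, against 6.87%). A peak past the gene end was listed in all 6 libraries for 24 of the 47 genes with the tract (51.1%) and for 11 of the 21 without it (52.4%). Both sequences with no tract above, RPS15 and RPL3, had such an end peak in all 6 libraries.

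Peaks at ribosomal protein genes gathered past the transcription end site (TES), the 3′ end of the gene in the RefSeq table. The position covered in the most genes lay 700 to 1100 bp past the TES in each of the 6 libraries, where 64.3% ± 8.83 of the 85 genes (SD, n = 3) were under a peak with active SCP1 and 46.7% ± 5.80 with inactive SCP1. For all protein-coding genes the highest values past the TES were 14.1% ± 5.64 and 3.66% ± 1.32. At the TSS itself the picture was different: 7.06% ± 6.23 of ribosomal protein genes were covered with active SCP1 and 0.0% in every inactive library, while all protein-coding genes had 6.42% ± 4.59 and 1.14% ± 0.633. Within 3000 bp of the TSS, all protein-coding genes had their highest value at most 100 bp downstream of it in every library. Ribosomal protein genes had theirs 2500 to 3000 bp downstream, towards the gene end. In every library but active replicate 2 this was at or near the limit of 3000 bp, so it gives a rise and not the position of a peak.

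**Figure D1:**
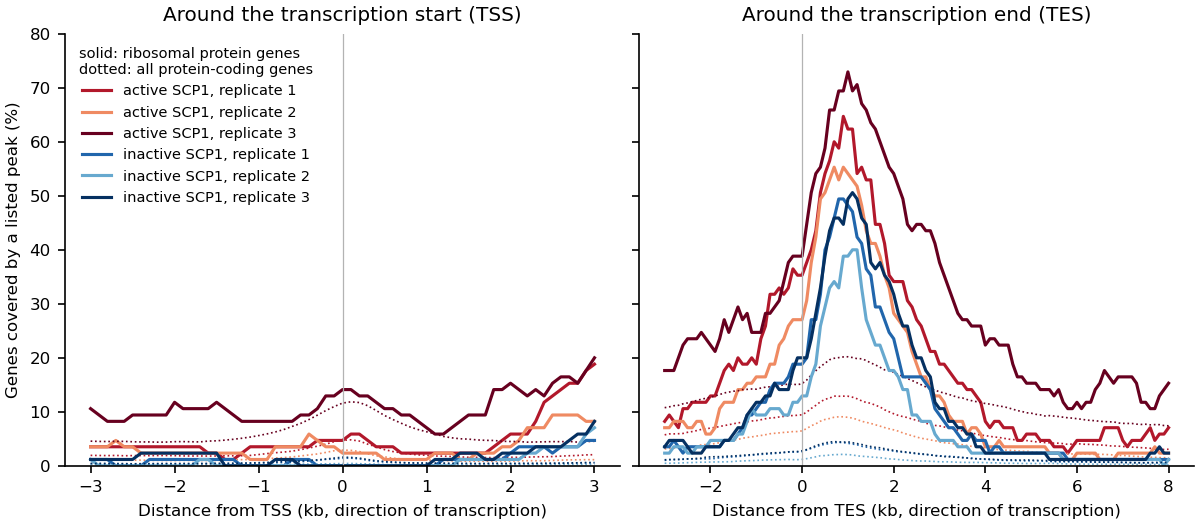
Percent of genes under a listed peak at each distance (kb) from the TSS (left) and the TES (right), 1 line per library, with solid lines for the 85 ribosomal protein genes and dotted lines for all 19626 protein-coding genes. The solid lines reach up to 72.9% at 700 to 1100 bp past the TES and stay at or below 14.1% at the TSS.

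Counted by gene, a peak from the TES to 5000 bp downstream was listed for 68, 60 and 74 of the 85 genes in the active libraries and for 57, 47 and 58 in the inactive libraries. The shares were 79.2% ± 8.26 and 63.5% ± 7.16 (SD, n = 3), and each active library was above each inactive one. For all protein-coding genes they were 28.0% ± 10.4 and 8.70% ± 3.01, for the 5430 protein-coding genes of at most 10000 bp 25.6% ± 10.2 and 9.55% ± 3.03, and for the 77 mitochondrial ribosomal protein genes, which serve the ribosome of the mitochondrion, 51.5% ± 11.3 and 19.5% ± 6.87. In all 6 libraries such a peak was present in 46 ribosomal protein genes (54.1%), where 4.46% of all protein-coding genes had one. In all 3 active and no inactive library it was present in 1, RPS15A, a gene of the small subunit, against 5.44% of all protein-coding genes. Leaving out active replicate 2 raised this count to 7 (8.24%, against 11.6% of all protein-coding genes), and leaving out active replicate 1 or inactive replicate 3 raised it to 3 (3.53%, against 6.62% and 7.29%). No gene had this peak in more inactive than active libraries, 48 had it in equally many libraries of both treatments, 28 in fewer inactive ones and 9 in no library.

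The gene itself held a peak in 50, 38 and 58 of the ribosomal protein genes with active SCP1 and in 27, 23 and 31 with inactive SCP1 (57.3% ± 11.8 and 31.8% ± 4.71, against 34.8% ± 18.3 and 6.86% ± 2.77 of all protein-coding genes). A peak within the gene was present in all 6 libraries for 23 genes (27.1%, against 2.95% of all protein-coding genes) and in all 3 active and no inactive library for 7 (8.24%, against 7.26%). Within 1000 bp of the TSS a peak was listed for 6, 6 and 19 genes with active SCP1 and for 1, 0 and 1 with inactive SCP1. These shares were 12.2% ± 8.83 and 0.784% ± 0.679, against 10.3% ± 7.89 and 1.92% ± 0.892 of all protein-coding genes. Of the 19 genes with a TSS peak in any active library, 12 had it only in active replicate 3, the library with the longest list. Without that library the shares differed by 6.27 percentage points, against 11.4 with it. From 1000 bp before the TSS to 5000 bp past the TES, a peak was listed in all 6 libraries for 56 of the 85 genes (65.9%, against 6.53% of all protein-coding genes).

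**Figure D2:**
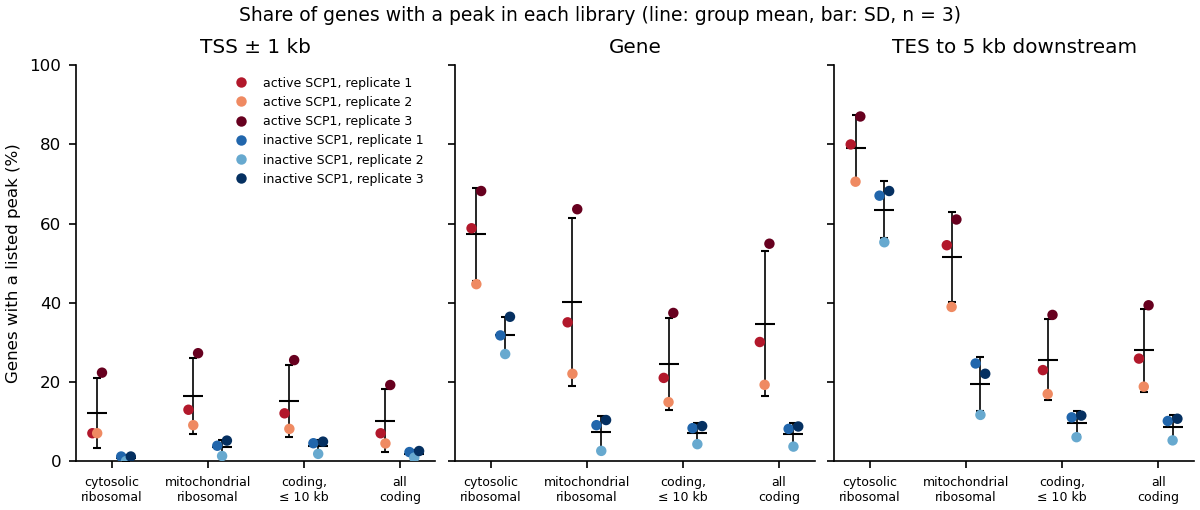
Percent of genes with a listed peak (vertical axis) within 1000 bp of the TSS, in the gene and from the TES to 5000 bp downstream, for 85 cytosolic and 77 mitochondrial ribosomal protein genes, 5430 protein-coding genes of at most 10000 bp and all protein-coding genes. Points are libraries, lines means and bars SD (n = 3). In the right panel the cytosolic ribosomal protein genes lie between 55.3% and 87.1%, above each of the other sets shown in the same library.

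The gap between treatments past the gene end changed with the part of each list that was compared. With only the 1163 most significant peaks kept from every library, as many as the shortest list held, a downstream peak was left in 35, 36 and 43 ribosomal protein genes with active SCP1 and in 48, 47 and 45 with inactive SCP1. The share was then 44.7% ± 5.13 against 54.9% ± 1.80, and each active library was below each inactive one. All protein-coding genes did not turn round in this form, with 6.36% ± 0.277 with active and 5.60% ± 0.309 with inactive SCP1. With all lists limited to −log10 p-values from 6 upward, the ribosomal protein genes gave 51.8% ± 7.35 and 46.3% ± 4.45, and the libraries of the groups overlapped. For the TSS window the direction held in both forms (2.75% ± 0.679 against 0.392% ± 0.679 at equal peak number), with at most 5 genes in a library.

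Peaks at ribosomal protein genes took 0.808%, 1.24% and 0.347% of the active lists and 2.84%, 5.07% and 2.74% of the inactive lists. Among the 100 peaks with the highest −log10 p-values of each list, 14, 10 and 11 were at ribosomal protein genes in the active libraries, against 16, 17 and 17 in the inactive ones. The share of the inactive lists was thus above that of the active lists in every library, also among the strongest peaks. Downstream peaks of ribosomal protein genes were strong for their own list. Their median rank lay in the top 7.20% ± 4.30 of the list with active SCP1 and in the top 15.3% ± 2.99 with inactive SCP1, where the downstream peaks of all protein-coding genes had 24.1% ± 6.67 and 41.5% ± 3.20. Their median fold enrichment was 4.20 ± 0.197 with active SCP1 and 4.42 ± 0.196 with inactive SCP1, against 3.60 ± 0.139 and 3.94 ± 0.0235 for all protein-coding genes. The log2 ratio of these medians within a list was 0.22 ± 0.12 and 0.16 ± 0.056.

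Among genes of the large subunit, RPL26 had the highest downstream fold enrichment of all ribosomal protein genes in each of the 6 lists, at 10.5, 10.6 and 9.11 with active SCP1, against 10.9, 7.20 and 10.2 with inactive SCP1. The lists overlapped in this value. The peak began 899 bp before the TES in active replicate 1, 181 and 299 bp past it in active replicates 2 and 3 and 303 to 402 bp past it in the inactive libraries, and in each library it also lay over KRABD2, so signal of that gene cannot be told apart from signal of RPL26. RPL23A, the host of 4 snoRNA genes, had 7.27, 7.66 and 8.32 with active SCP1, against 7.47, 5.68 and 7.96 with inactive SCP1. Its peak lay over the neighbour TLCD1 too. RPL38, whose protein takes part in the selective translation of homeobox mRNAs, had 6.55, 6.65 and 6.73 against 6.20, 5.58 and 7.13. At chr17:74210148-74211942 in inactive replicate 1 and chr17:74209185-74212038 in active replicate 1, the RPL38 peak spanned the TES in both.

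RPL3, which reaches into the peptidyl transferase centre, had a downstream fold enrichment of 6.52, 5.63 and 6.16 with active SCP1, against 6.52, 5.16 and 8.39 with inactive SCP1. RPL8, also near that centre, had 6.85, 4.87 and 8.93 against 6.90, 4.86 and 7.15. RPL13A, known also for a role in inflammation-dependent control of translation, had 5.42, 4.99 and 5.96 against 6.25, 6.12 and 6.05, so each inactive value was above each active one. RPL18 had 6.05, 5.62 and 6.44 against 6.22, 4.78 and 5.59, and overlapped. RPL36 had 8.48, 7.79 and 8.92 against 6.70, 5.47 and 6.68, with each active value above each inactive one. Fold enrichment belongs to its own list and was not tested between groups.

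In the small subunit, RPS2, a protein at the mRNA entry side, had a downstream fold enrichment of 6.61, 5.42 and 6.53 with active SCP1, against 7.48, 5.04 and 6.03 with inactive SCP1. RPSA, first described as a laminin receptor precursor, had 5.76, 5.55 and 6.17 against 5.85, 5.27 and 5.67. RPS9 had 6.05, 5.68 and 7.38 against 5.65, 4.07 and 5.22. RPS18, a protein of the head of the subunit, had 5.81, 5.13 and 5.78 against 5.54, 3.88 and 5.43. Each active value was above each inactive one for RPS9 alone among these 4. The 3 stalk genes encode the acidic proteins that contact elongation factors and their anchor RPLP0. Of these, RPLP1 had 3.95, 4.20 and 3.81 against 4.42, 4.55 and 4.75, so each inactive value was above each active one. RPLP0 and RPLP2 had a downstream peak in all active libraries and in inactive replicates 1 and 3 only. By subunit, a downstream peak was present in all 6 libraries for 28 of 50 RPL genes (56.0%), 1 of 3 RPLP genes and 17 of 32 small subunit genes (53.1%).

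**Figure D3:**
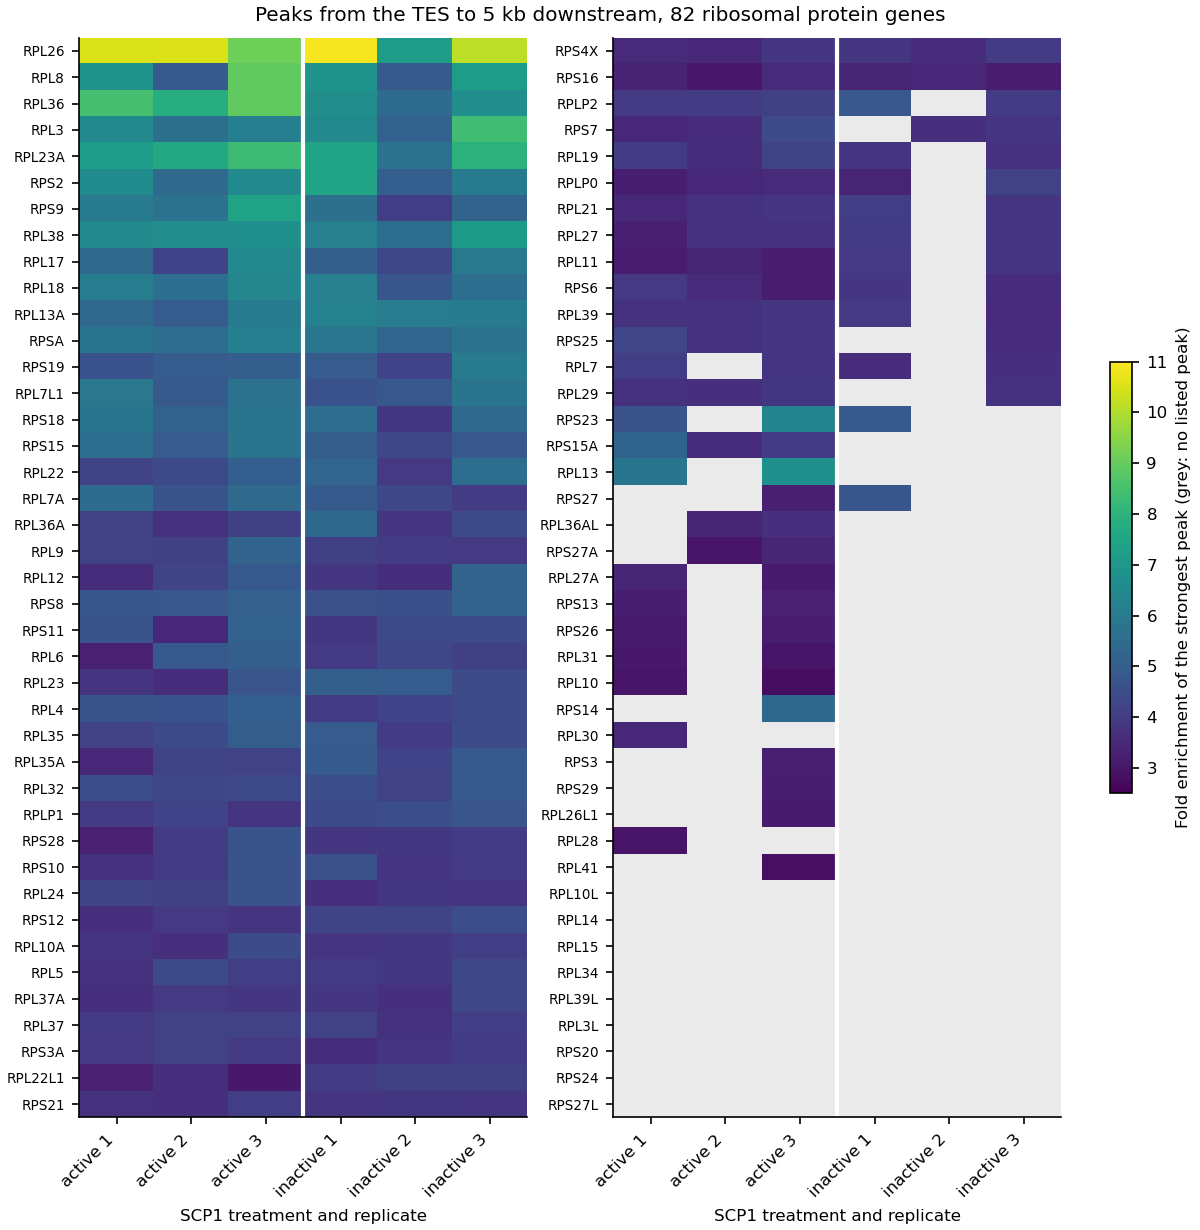
Fold enrichment (colour scale) of the strongest peak from the TES to 5000 bp downstream in each of the 6 libraries (columns, active 1 to 3 and inactive 1 to 3) for 82 of the 85 ribosomal protein genes (rows), ordered by the number of libraries with a peak and then by the highest value; grey marks no listed peak. In 43 of them no column is grey, RPL26 is at the top, and 9 genes are grey in all columns.

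The bases under a peak from 1000 bp before the TSS to 5000 bp past the TES were compared gene by gene. In 82 of the 85 genes the mean was higher with active SCP1, in 1 with inactive SCP1, and 2 genes, RPL10L and RPL39L, had no peak in any library. In 38 ribosomal protein genes (44.7%) each active library was above each inactive one, where 21.6% of all protein-coding genes were. In no ribosomal protein gene was each inactive library above each active one, nor in any protein-coding gene (0.0%). The two-sided exact permutation test over the 20 ways to assign 3 and 3 libraries gives such a gene p = 0.1, the smallest p possible here, so no single gene could pass a threshold of 0.05. Without active replicate 2, the shortest active list, 60 genes (70.6%, against 36.0% of all protein-coding genes) did not overlap with active SCP1 above. The 38 genes were 20 of 50 RPL genes, 2 of 3 RPLP genes and 16 of 32 small subunit genes. Among the 56 ribosomal protein genes covered in all 6 libraries the median ratio of active to inactive covered length was 1.74 (log2 0.80), with 55 higher in the mean and 31 not overlapping. Among the 1282 protein-coding genes covered in all 6 it was 3.06 (log2 1.61), with 1271 higher and 1025 not overlapping.

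RPS19, a small subunit gene often mutated in Diamond-Blackfan anaemia, had the largest difference among the 38, with 9196, 6899 and 9061 bp covered with active SCP1, against 2041, 1670 and 1765 bp with inactive SCP1. In every library a peak ended 509 to 1217 bp past its TES. In the inactive libraries this peak began 1160 to 1240 bp before the TES, and in the active ones 4438 to 8232 bp before it, at chr19:41864693-41873888 in active replicate 1 and chr19:41871689-41873729 in inactive replicate 1. Of the mean difference of 6560 bp at RPS19, 6202 bp lay inside the gene. RPL3 had 5428, 3850 and 7514 bp against 1506, 1997 and 1729 bp, and its peak was longer at both ends. It began 758 to 2513 bp before the TES with active SCP1 and 213 to 334 bp past it with inactive SCP1, and ended 3091 to 9551 bp past the TES against 1718 to 2318 bp. Of the mean difference of 3853 bp at RPL3, 1719 bp lay inside the gene. RPS3, a protein of the mRNA entry channel, had 4594, 3801 and 10741 bp against 2972, 1449 and 3686 bp, and active replicate 3 stood apart from the other active libraries.

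RPL32, a host of 1 snoRNA gene, had 5216, 5142 and 6265 bp covered with active SCP1, against 3198, 1852 and 3763 bp with inactive SCP1. RPL28 had 3471, 3653 and 5337 bp against 1485, 1621 and 1830 bp. In RPL28 a further peak, 3231 to 5578 bp past the TSS, was listed in the 3 active libraries and in no inactive one. RPL29 had 3454, 2869 and 3350 bp against 0, 0 and 1767 bp, and RPL36AL, a paralog of RPL36A, 1726, 751 and 6472 bp against 0, 0 and 574 bp. At the other end of the 38, RPL36 (6481, 6406 and 6539 bp against 5389, 5261 and 5238 bp) and RPS4X (4358, 4531 and 4085 bp against 2927, 3849 and 3540 bp) did not overlap between groups although their mean ratios were 1.22 and 1.26. In every library the end peak of both genes ran beyond the limit of 5000 bp past the TES, to at least 7744 bp for RPL36 and 5374 bp for RPS4X. Their covered lengths and ratios leave out the part past that limit.

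**Figure D4:**
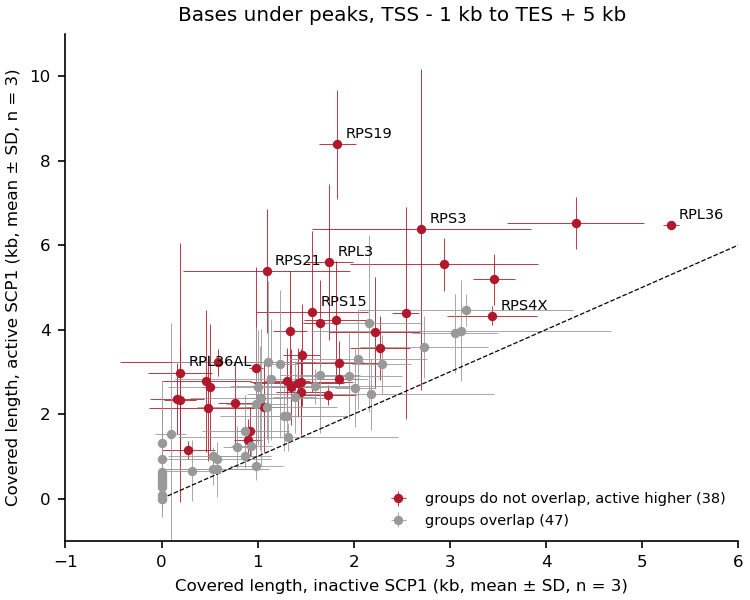
Bases under listed peaks (kb, mean ± SD, n = 3) from 1000 bp before the TSS to 5000 bp past the TES for each of the 85 ribosomal protein genes, inactive SCP1 on the horizontal and active SCP1 on the vertical axis, with a dashed line of equality. The 38 red genes do not overlap between groups and all lie above the line, with RPS19 farthest from it.

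At equal peak number, 22 ribosomal protein genes (25.9%, against 4.19% of all protein-coding genes) had covered lengths that did not overlap with active SCP1 above, all of them among the 38, RPS19 and RPL3 included. In that form 4 genes had each inactive library above each active one (4.71%, against 0.265%). They were RPL35A, RPL37A, RPS4X and RPS29, named here after their values were seen, and each had no peak left in any active list. RPL29 and RPS21 turned round, with 0 bp in the 3 active lists and a peak in 1 inactive list. For the 11 ribosomal protein genes with no other gene in the stretch, 6 did not overlap with active SCP1 above. The matching share of all protein-coding genes with no other gene in the stretch was not computed, so this count is a description.

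The peaks past the gene end were also longer with active SCP1. Over the 46 genes with a downstream peak in all 6 libraries, the strongest such peak began a median of 254 bp before the TES with active SCP1 and 320 bp past it with inactive SCP1. The start lay further upstream with active SCP1 in 43 of the 46 genes, in 25 of them in each active library against each inactive one, and in none the other way. The median end moved from 1667 bp past the TES with inactive SCP1 to 2431 bp with active SCP1, further downstream in 43 of the 46 and without overlap in 15. The matching shares of all protein-coding genes were not computed for these starts and ends, so the counts are a description. The median width of downstream peaks was 2316 ± 536 bp and 1452 ± 212 bp, against 1534 ± 205 bp and 1012 ± 53.6 bp for all protein-coding genes. The longer lists were also those of the active libraries, and the part of list length in these widths was not tested.

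By stretch, 32.5% ± 9.75 of the bases from the TES to 5000 bp past it were under a peak with active SCP1 and 18.3% ± 3.74 with inactive SCP1, with a ratio of 1.78. In the genes it was 14.4% ± 4.53 and 5.85% ± 1.26 (ratio 2.46), and in the 1000 bp before the TSS 5.80% ± 3.59 and 0.227% ± 0.197 (ratio 25.6), where inactive replicate 2 had 0.0%. All protein-coding genes had 9.83% ± 4.89 and 2.01% ± 0.772 past the TES (ratio 4.90), 1.35% ± 1.09 and 0.121% ± 0.0498 in the gene (ratio 11.2) and 4.43% ± 3.30 and 0.714% ± 0.354 before the TSS (ratio 6.20). Past the TES and in the gene, ribosomal protein genes were thus the more covered in both treatments and had the smaller ratio between treatments. Each share is over summed bases, so long genes weigh more in the gene value of all protein-coding genes. No such share was computed for short genes. Before the TSS they had the larger ratio and the lower inactive value, but the ratio rests on few bases. The only inactive peaks there were at RPS15A, of 299 and 279 bp. The active values were 3.86%, 3.60% and 9.94%, so active replicate 3 stood apart. This ratio is therefore a description and not a trait of the gene set.

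A peak within 1000 bp of the TSS in all 3 active libraries and no inactive one was listed for 4 ribosomal protein genes, RPL36, RPS15 and RPS21 among them (4.71%, against 1.28% of all protein-coding genes). In all 6 libraries no ribosomal protein gene had one (0.0%, against 0.825%). RPL36, RPS15 and RPS21 differed in what their peak was. In RPL36 the peak was the one at the gene end, which began 42 to 175 bp past the TSS with active SCP1 and 1192 to 1343 bp past it with inactive SCP1, and ran on over LONP1 for 10772 to 19776 bp past the TES with active SCP1. In RPS15 it was the edge of a peak that came from upstream over DAZAP1, at fold 4.20, 4.07 and 4.50, while the own end peak of RPS15 was listed in all 6 libraries.

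RPS21 had TSS peaks with a fold enrichment of 3.24, 3.44 and 4.05 that began 494 to 1247 bp before the TSS and lay over the divergent transcript RPS21-DT as well. In active replicate 3 a single peak of 7292 bp covered the whole gene, lay over CABLES2 too and ended 4646 bp past the TES. Its fold enrichment of 4.05 is therefore also the downstream value of that library. RPS15A was the only ribosomal protein gene with a peak within 1000 bp of the TSS in an inactive library, at 3.66, 3.90 and 4.38 with active SCP1 and 4.85 and 3.72 in inactive replicates 1 and 3. Both inactive peaks were short, at 299 and 279 bp, and ended before the TSS without covering it. Of the 19 TSS peaks in active replicate 3, 9 also lay over another gene, 5 began past the TSS and 3 reached the TES of their own gene.

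**Figure D5:**
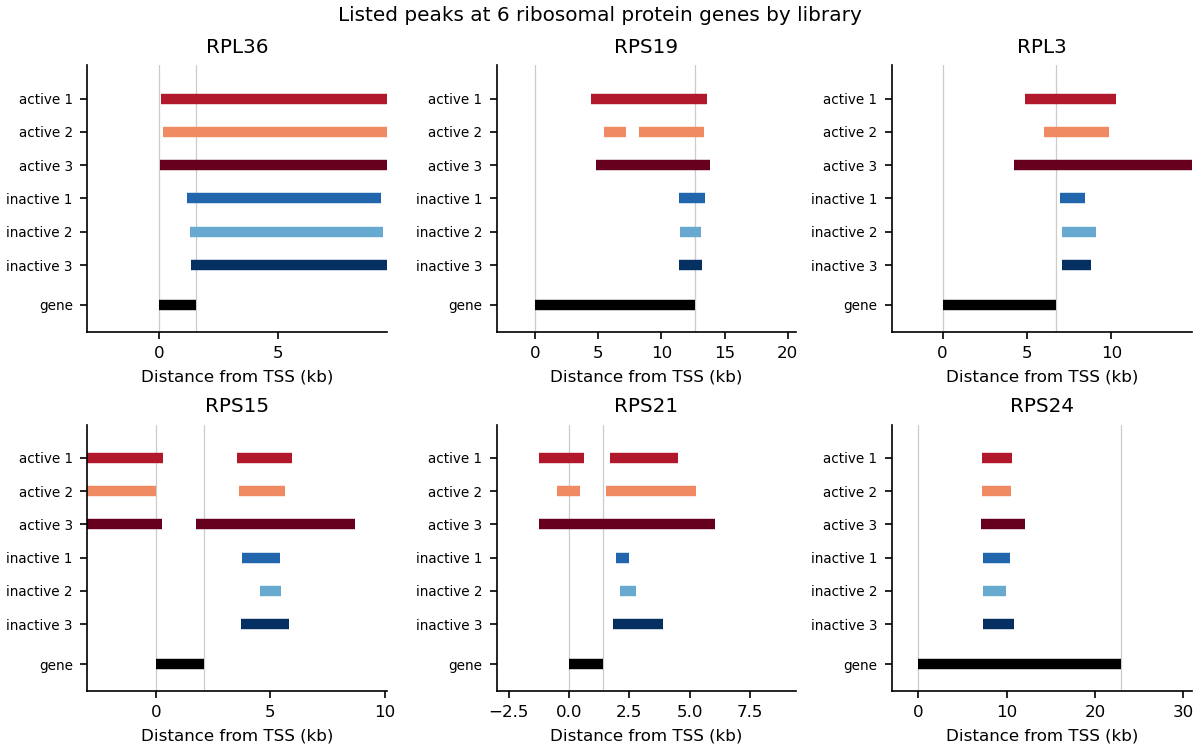
Listed peaks (bars) in each of the 6 libraries along RPL36, RPS19, RPL3, RPS15, RPS21 and RPS24, against the distance from the TSS (kb) in the direction of transcription, with the gene as a black bar and grey lines at its TSS and TES; bars that reach a panel edge go on beyond it. Peaks near the TSS appear in active libraries of RPL36, RPS15 and RPS21, the active peaks of RPS19 and RPL3 begin further inside the gene, and RPS24 has its peak inside the gene in all 6.

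In 9 ribosomal protein genes a peak inside the gene was listed in all 6 libraries with no inactive peak past the TES. They were RPL10, RPL13, RPL27A, RPL28, RPL31, RPS14, RPS24, RPS29 and RPS3, named after their values were seen. RPS24 had a peak that began 7080 to 7352 bp past the TSS in all 6 libraries, at a fold enrichment of 5.03, 4.84 and 5.43 with active SCP1, against 5.65, 4.50 and 4.67 with inactive SCP1. RPS24 spans 22944 bp in the gene table, RPS29 27723 bp and RPS3 22785 bp, which are the longest of the 85. A TES taken from the outermost end of a gene can lie beyond the end of the transcript that a cell mainly uses, and which end HEK293 cells used was not tested here. RPS14, at 7105 bp, had its peak close to the end, 86 to 385 bp before the TES in the inactive libraries.

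Of the 8 paralogs with L or L1 symbols, RPL7L1 and RPL22L1 had a downstream peak in all 6 libraries. RPL7L1 had a fold enrichment of 5.87, 4.88 and 5.69 with active SCP1, against 4.64, 4.80 and 5.78 with inactive SCP1, and RPL22L1 3.28, 3.63 and 3.10 against 3.97, 4.10 and 4.10. RPL10L, a testis gene, and RPL39L had no peak, and RPL3L, a gene of striated muscle, had 1 in active replicate 3 only. RPL26L1 and RPS27L had peaks in active libraries only, and RPL36AL is given above. Covered length did not overlap, with active SCP1 above, for RPL7L1 and RPL36AL, 2 of the 8 (against 21.6% of all protein-coding genes).

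Ribosomal protein genes have many processed pseudogenes, copies of their mRNAs, which resemble the genes in sequence. Of 1985 pseudogenes with a ribosomal protein symbol, 16, 7 and 64 lay under a peak with active SCP1, against 2, 3 and 3 with inactive SCP1. Away from protein-coding genes with their flanks the numbers were 0, 3 and 20 of 1127 with active SCP1 and 0 in each inactive library. A list of peaks does not show how reads with several matches were treated.

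Neighbours lay close to many of these genes. Another protein-coding gene reached into the stretch from 1000 bp before the TSS to 5000 bp past the TES for 51 of the 85, and only 11 had no other gene at all there. A downstream peak in all 6 libraries was present in 31 of the 51 (60.8%) and in 15 of the 34 without a coding neighbour (44.1%), and in 4 of the 11 with no neighbour at all. It was present in 18 of the 29 snoRNA hosts (62.1%), in 28 of the 56 others, and in 11 of the 12 genes on chromosome 19. These counts are a description of overlapping groups of genes.

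Other genes of translation were read by the same rule of covered length. FAU, a fusion of a ubiquitin-like protein with a small subunit protein that lies outside the RPL and RPS symbols, had 2165, 1994 and 2710 bp with active SCP1, against 1162, 801 and 1030 bp with inactive SCP1, without overlap. With active SCP1 above, 5 of 8 elongation factor genes (62.5%), 18 of 29 initiation factor genes (62.1%) and 18 of 29 ribosome biogenesis genes (62.1%) did not overlap, against 38 of 85 cytosolic ribosomal protein genes (44.7%) and 21.6% of all protein-coding genes. The counts were nearer to that of all protein-coding genes for the other TOP genes, with 2 of 7 (28.6%), and the mitochondrial ribosomal protein genes, with 24 of 77 (31.2%). None of these lists held a gene with inactive SCP1 above.

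In these lists 2 genes, EIF4A1 and MRPL53, had a TSS peak in all 6 libraries, as 0.825% of all protein-coding genes did. EIF4A1, the RNA helicase that unwinds mRNA leaders, had 4.82, 3.98 and 6.40 with active SCP1, against 4.37, 3.58 and 3.79 with inactive SCP1. MRPL53, of the mitochondrial large subunit, had 5.17, 4.34 and 5.31 against 5.61, 4.51 and 4.39. This gene is 699 bp long and lies wholly within 1000 bp of its TSS, so start and end signal cannot be told apart. EIF1, which guards start codon choice, and EEF1G, a subunit of elongation factor 1, had a TSS peak in all 3 active libraries and no inactive one, at 3.63, 3.37 and 2.84 and at 3.34, 3.91 and 3.77. NOP2, an rRNA methyltransferase, had 4.01, 4.04 and 5.10 with active SCP1 and 3.93 and 4.28 in inactive replicates 1 and 3. MRPS34, of the mitochondrial small subunit, had 6.61, 6.72 and 8.24 with active SCP1 and 4.55 in inactive replicate 3. The gene is 1240 bp long, and its active values are also its downstream values. Its downstream peak was listed in every inactive library too, at 5.77, 5.14 and 5.48. Its TSS signal thus cannot be told apart from that of the gene end. These values are a description of single genes.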

How the data were processed

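The authors deposited 1 broad-peak list per library, with a position, a score, a fold enrichment (a ratio over background), a −log10 p-value and a −log10 q-value per peak. The submitters' processing notes name FastQC, cutadapt 4.6, Bowtie2 2.5.2 and hg38. The peak caller, its settings and the control are not given in the sources used here. Their score, not used, equals the deposited −log10 q-value times 10 with decimals dropped, and the lowest deposited −log10 q-value, 1.00, fits a q cutoff of 0.1. The paper read for style describes a different phosphatase. No read counts were used here, so depth and counting error are unknown, and the precision is that of 3 libraries a group.

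Genes came from the RefSeq table of GRCh38.p14, which gives no exons or introns. Strand came from RefSeq start sequences (68 of 85 genes) or, by gene name, from GENCODE (17). Both gave the same strand for 99.59% of 15260 genes. A peak counted with 1 base of overlap, and the peak with the highest fold enrichment stood for a window. Peaks off chromosomes 1 to 22 and X were left out. Scripts used Python 3.11.15, numpy 2.4.6 and pandas 2.3.3, and were tested on simulated data.

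The exact permutation test (two-sided, 20 assignments) was run per gene on all protein-coding genes, and a gene was counted when its groups did not overlap. Shares over the gene list have no p. Named genes were those whose TSS peak was in the 3 active lists alone; up to 10 with a peak in all 6 by lowest fold; up to 10 with the largest covered-length difference without overlap; up to 10 with a downstream peak in all active libraries and no TSS peak, by lowest fold; those without peaks; the paralogs and FAU; and genes of the other lists with a TSS peak in all active libraries. The gene set, lists and rules were chosen with earlier results of these data known, and the motifs and printed sequences after seeing them. Alternatives changed the peak lists, windows, overlap, neighbours and libraries. Some genes that met these rules are not reported here.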

Additional observations from a re-analysis of the deposited data

How the results depend on the processing

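The lists fix what can be read from them: a peak is absent when it misses the cutoff of its own list, and depth is unknown. Differences below are active minus inactive, in percentage points for shares. As deposited, the differences were 11.4 (TSS), 25.5 (gene) and 15.7 (downstream), the TSS fold of ribosomal protein genes lay at −0.040 (log2, mean of active libraries) of all protein-coding genes and the downstream one at 0.19 (mean of all 6).

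At equal peak number the shares differed by 2.35 (TSS), 4.31 (gene) and −10.2 (downstream), the TSS fold was 0.36, and counts were 2 genes with an active-only TSS peak, 0 with an active-only downstream peak, 27 with a downstream peak in all 6, 22 with covered length higher with active and 4 with inactive SCP1. RPS21 turned to −217 bp and RPL29 to −589 bp. With a −log10 p of at least 6 the values were 3.14, 11.4 and 5.49, 0.29, and 2, 0, 28 and 23 genes (the last against 5.54% of all protein-coding genes). With a −log10 q of at least 2 the TSS share differed by 5.10, the TSS fold was 0.030, and 2 genes had active-only TSS and 3 active-only downstream peaks. Only active libraries gave a median TSS fold, from few genes. Among the 11 genes with no other gene nearby, 1 had an active-only TSS peak, 4 a downstream peak in all 6 and 6 a higher covered length, with a TSS fold of 0.26 and a downstream fold of 0.078. From 1000 to 5000 bp past the TES, 0 genes had an active-only downstream peak. In the gene alone, 24 had a higher covered length (28.2%, against 14.3%). For the other TSS and downstream counts of these alternatives, and for all counts among the 11 genes, the matching shares of all protein-coding genes were not computed. Those counts are a description. Each of these alternatives kept fewer peaks, genes or bases than the deposited form. The cause of the changes, the reversed downstream share and the reversed TSS fold included, was not tested.

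Leaving out 1 library at a time, active-only downstream genes ranged from 1 to 7 (7 without active replicate 2), genes with higher covered length from 38 to 60 (60 without active replicate 2), genes higher with inactive SCP1 from 0 to 1 (RPL21 without inactive replicate 2, RPL17 without inactive replicate 3) and genes with a TSS peak in all libraries from 0 to 1 (without inactive replicate 2). Without active replicate 3 the TSS share differed by 6.27. Replicates 1 and 2 alone, any transcript start and leaving out the paralogs were chosen after seeing the data. The first gave 3 active-only downstream genes, and the matching share of all protein-coding genes was not computed.

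Numbers were not taken as pairs in the main test, although the lysate had been divided into matched aliquots. Correlations of deviations over 12839 genes were 0.057, −0.22 and −0.18 for same-numbered libraries. The highest, 0.32, was between active replicate 3 and inactive replicate 2, the longest and the shortest list. With 3 libraries a group and lists of such unlike length, these correlations cannot show whether the libraries were paired. In the replicate block, 56 ribosomal protein genes were higher with active SCP1 in all 3 pairs, against 24.2% of all protein-coding genes, the smallest p is 0.25, and shares were unchanged.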
